A study of Mus musculus with 9 samples.

Results

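The genes described here are 9 transcription factors that set and keep photoreceptor identity in the mouse retina: Nrl, Nr2e3, Crx, Esrrb, Otx2, Prdm1, Rorb, Neurod1 and Rxrg. They were chosen by name, as the rows whose Ensembl identifier maps to one of these symbols, and all 9 were found among the 47729 identifiers of the count table. Bulk RNA sequencing of whole retinas gave 9 libraries, 3 in each of 3 groups, all on a C57Bl6/J background. C57 retinas were wild type and taken at postnatal day 30 (P30), and their libraries were re-analysed from an earlier series. Control retinas were floxed for Yap without a Cre driver, and Yap CKO retinas were floxed for Yap and carried Rax-CreERT2, a Cre activated by tamoxifen that acts in Müller cells, the resident glia. Both of these groups had been injected with 4-hydroxytamoxifen at P10, and their retinas were taken at P60. MNU appears in the library names of both P60 groups, although no label mentions a treatment so named, and the control samples carry the genotype label Yap CKO with no Cre beside it. Each P60 library came from 1 retina, and nothing shows that the retinas of a group came from different animals, so p-values measure the spread between these retinas.

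Photoreceptors arise from progenitors in which the homeodomain factor Otx2 switches on Crx, its close relative. Crx then drives most rod and cone genes. The bZIP factor Nrl directs newborn photoreceptors to the rod fate, and its target Nr2e3, an orphan nuclear receptor, represses cone genes in rods. Esrrb, an estrogen-related receptor, supports rod survival, and Rorb acts upstream of Nrl. Prdm1 (Blimp1) keeps early photoreceptors from becoming bipolar cells, Neurod1 is a basic helix-loop-helix factor of photoreceptors and amacrine cells, and Rxrg is a retinoid receptor of cones. Several of the factors are not restricted to photoreceptors: Otx2 is kept in bipolar cells and the pigment epithelium, and Rorb in several neurons of the inner retina.

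The libraries held 13760765 to 16808499 counts in C57 and 34739679 to 37629264 at P60. Levels are given in CPM, the reads of a gene relative to the library size, scaled by TMM over the 9 libraries. Yap1, the targeted gene, was at 23.4 to 30.4 CPM in C57, at 57.6 to 67.4 CPM in control and at 15.3 to 24.3 CPM in Yap CKO. Yap CKO thus lay far below control, while its range overlapped that of C57. Yap CKO 3 had a sum over 10 lens genes of 1218 CPM, against at most 25.8 CPM in any other library. All control retinas, Yap CKO 3 and C57 2 were male by their Y-linked transcripts, and the others expressed Xist. No pair of libraries within a group was a duplicate (chi-square per degree of freedom 22.6 to 133).

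Most of the factors stood far below their C57 level in the P60 retinas, those of rods furthest. In control against C57, 7 of the 9 fell and none rose (edgeR quasi-likelihood test, adjusted p under 0.05), while 22.4% of the 15820 genes tested were called lower and 23.1% higher. The median log2 fold change of the 9 was -2.44, where that of all genes tested was 0.03. Nr2e3 and Nrl were furthest down, Esrrb, Crx and Prdm1 followed, Otx2 and Rorb fell least, and Neurod1 and Rxrg did not pass. The same 7 factors had no overlap between the control and C57 libraries, with all controls below all C57 libraries, as did 26.6% of all genes tested. In whole retina, fewer photoreceptors and less RNA per photoreceptor cannot be told apart, and age, the floxed allele, 4-hydroxytamoxifen, the MNU of the library names and the source of the libraries all differ between C57 and the P60 groups and cannot be told apart either. Sex differed in part, with 2 of 3 C57 retinas female and all 3 controls male.

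**Figure D1:**
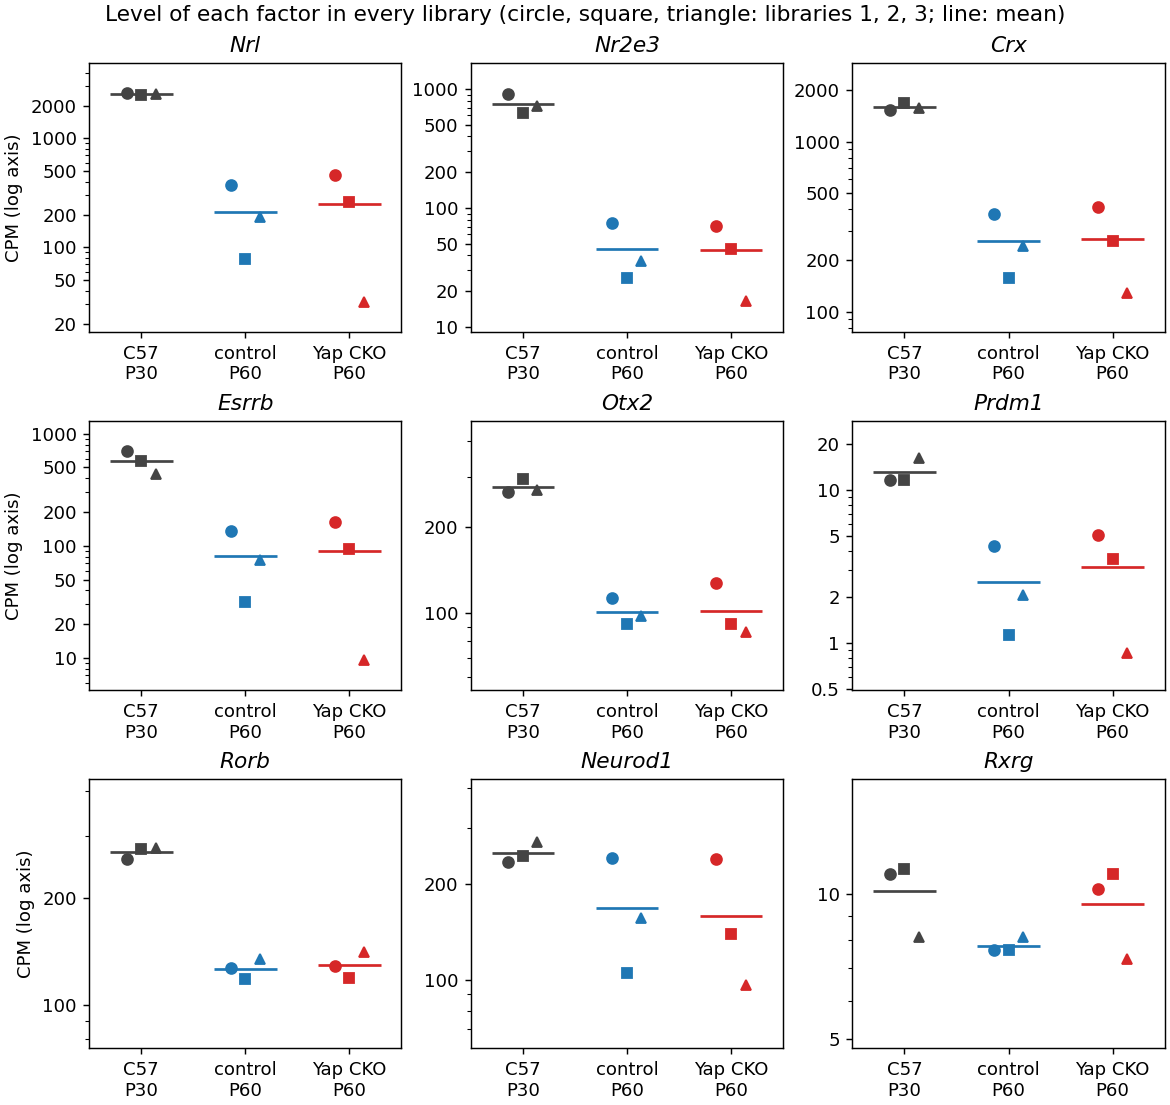
Level of each of the 9 factors in every library, in CPM on a log axis, for C57 at P30 and for control and Yap CKO at P60 (circle, square and triangle are libraries 1, 2 and 3, the C57 triangle is the unnumbered C57 library, and the line is the group mean). Nrl, Nr2e3, Crx, Esrrb and Prdm1 are low and spread at P60, Otx2 and Rorb are low and tight, and Neurod1 and Rxrg overlap the C57 range.

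Nrl (ENSMUSG00000040632, GRCm38 chr14:55518978-55524981, minus strand) was at 2628, 2498 and 2586 CPM in C57 1, C57 2 and the unnumbered C57 library. It was at 372.1, 78.9 and 190.4 CPM in control 1, 2 and 3, and at 464.1, 262.3 and 31.4 CPM in Yap CKO 1, 2 and 3. The C57 libraries were nearly alike, whereas the highest P60 library held 14.8 times the level of the lowest and both extremes were Yap CKO libraries. From 2571 ± 66.5 CPM in C57, Nrl was 12.3-fold lower in control, at 213.8 ± 148 CPM (SD, n = 3; log2 -3.62, SE 0.50, edgeR adjusted p = 0.000951). Without control 1, the control with the most Nrl, the log2 fold change was -4.28.

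Nr2e3 (chr9:59942771-59960659, minus strand), the repressor that Nrl switches on, was at 903.2, 633.7 and 728.0 CPM in C57. The levels were 74.7, 26.0 and 35.9 CPM in control and 70.8, 45.7 and 16.6 CPM in Yap CKO. Every P60 library lay far below the lowest C57 library. The mean of 45.5 ± 25.7 CPM in control against 754.9 ± 137 CPM in C57 was 17.0-fold lower (SD, n = 3; log2 -4.09, SE 0.40, edgeR adjusted p = 0.000205), the steepest fall of the 9.

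Esrrb (chr12:86361117-86521628, plus strand), the rod survival factor, was at 697.4, 572.3 and 434.9 CPM in C57, at 134.9, 31.8 and 74.6 CPM in control and at 163.4, 94.0 and 9.58 CPM in Yap CKO. It had the widest P60 range of the 9, with a highest-to-lowest ratio of 17.1, and its order over the P60 libraries was that of Nrl. It was 7.24-fold lower in control, with 80.4 ± 51.8 CPM against 568.2 ± 131 CPM (SD, n = 3; log2 -2.86, SE 0.48, edgeR adjusted p = 0.00215), and the log2 fold change was -3.45 without control 1.

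Crx (chr7:15865947-15879968, minus strand), the activator shared by rods and cones, stood at 1527, 1696 and 1581 CPM in C57. Control held 375.6, 158.2 and 241.9 CPM and Yap CKO held 410.7, 258.8 and 129.5 CPM. Crx thus kept a larger remainder than Nrl, 16.1% of the C57 mean in control against 8.32% for Nrl, and a narrower P60 range, with a highest-to-lowest ratio of 3.17. Crx was 6.35-fold lower in control, with 258.6 ± 110 CPM against 1602 ± 86.1 CPM in C57 (SD, n = 3; log2 -2.67, SE 0.29, edgeR adjusted p = 0.000327).

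Crx and Otx2 recognise the homeodomain motif TAATCC, NRL a motif with the core TGCTGA, the receptors of the ESRR and ROR families AAGGTCA, and NEUROD1 the E-box CAGATG. These 4 motifs, none of which contains another, were searched on both strands of the 250 bases before each RefSeq start of the 9 genes (15 windows, GRCm38.p6). The windows below are shown because at most 13 of their bases are annotated as exon and they differ in what they hold: the Crx window carries the motif of its own protein in 2 copies, those of Rorb and Rxrg hold 1 motif each, and that of Esrrb holds none. Rorb, Rxrg and Esrrb each have another window, also free of annotated exon, and none of those holds any of the 4 motifs. For Rorb and Rxrg the window with a motif was thus the one picked. Capitals mark the match, as read on the strand of the gene, 5′ to 3′.
Crx, chr7:15879956-15880205, minus strand: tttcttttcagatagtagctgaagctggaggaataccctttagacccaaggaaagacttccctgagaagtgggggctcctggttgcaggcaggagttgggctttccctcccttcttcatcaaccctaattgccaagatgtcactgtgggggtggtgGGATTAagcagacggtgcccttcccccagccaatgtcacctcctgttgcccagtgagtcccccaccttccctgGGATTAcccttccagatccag
Rorb, chr19:19111197-19111446, minus strand: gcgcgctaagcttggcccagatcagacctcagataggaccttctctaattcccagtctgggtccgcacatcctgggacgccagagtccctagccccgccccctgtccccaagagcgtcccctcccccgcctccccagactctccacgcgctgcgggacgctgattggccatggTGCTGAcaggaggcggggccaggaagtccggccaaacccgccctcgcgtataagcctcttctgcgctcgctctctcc
Rxrg, chr1:167618015-167618264, plus strand: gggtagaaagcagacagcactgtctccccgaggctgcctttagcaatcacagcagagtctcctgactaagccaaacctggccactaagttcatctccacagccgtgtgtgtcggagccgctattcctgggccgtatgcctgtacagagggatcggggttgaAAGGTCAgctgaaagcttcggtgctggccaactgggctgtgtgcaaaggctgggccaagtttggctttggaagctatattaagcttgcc
Esrrb, chr12:86360867-86361116, plus strand: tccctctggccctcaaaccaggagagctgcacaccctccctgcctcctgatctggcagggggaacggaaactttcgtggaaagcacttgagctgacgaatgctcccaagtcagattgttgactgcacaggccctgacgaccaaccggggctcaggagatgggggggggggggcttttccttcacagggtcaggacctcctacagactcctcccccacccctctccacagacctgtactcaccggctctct
In the Crx window, TAATCC lies on the opposite strand (read as GGATTA) 94 and 21 bases before the start. In Rorb, TGCTGA lies 77 bases before the start, and in Rxrg, AAGGTCA lies 89 bases before it. TAATCC was found in 2 of the 15 windows and in 6.25% of 32851 RefSeq windows of the same length. TGCTGA was in 3 of the 15 (16.1% of all), AAGGTCA in 1 (4.08%) and CAGATG in 2 (14.4%). A match is a description of these letters and shows no binding.

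Otx2 (chr14:48657677-48673819, minus strand), which acts above Crx, was at 266.9, 295.2 and 271.2 CPM in C57, at 113.3, 91.5 and 98.3 CPM in control and at 127.8, 91.6 and 86.1 CPM in Yap CKO. All 6 P60 libraries lay close together, with a highest-to-lowest ratio of 1.49, and all lay below C57. Control held 101.0 ± 11.2 CPM against 277.8 ± 15.2 CPM in C57, a 2.81-fold fall (SD, n = 3; log2 -1.49, SE 0.12, edgeR adjusted p = 7.7e-05). Otx2 shares 154 exonic bases with the antisense gene Otx2os1, which held 2589 counts over the 9 libraries. Whether the counting used strand is not stated in these sources, which leaves reads in the shared bases uncertain. Otx2 also shares 168 exonic bases with Gm49154 on its own strand, a gene absent from the count table, so strand cannot separate those reads.

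Rorb (chr19:18930605-19111196, minus strand), the receptor upstream of Nrl, was the most even factor at P60. Its level was 258.5, 275.6 and 276.7 CPM in C57, 127.0, 118.1 and 134.4 CPM in control and 128.4, 118.9 and 141.2 CPM in Yap CKO. Yap CKO 3, the library with the least Nrl, Crx and Esrrb, had the most Rorb of the P60 libraries. Against 270.3 ± 10.3 CPM in C57, control held 126.5 ± 8.13 CPM, a 2.19-fold fall (SD, n = 3; log2 -1.13, SE 0.10, edgeR adjusted p = 0.000135).

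Prdm1 (chr10:44437177-44528501, minus strand), the factor that holds back the bipolar fate, was low in all groups. It was at 11.6, 11.5 and 16.2 CPM in C57, at 4.27, 1.13 and 2.06 CPM in control and at 5.07, 3.54 and 0.857 CPM in Yap CKO. The P60 order was again that of Nrl. Prdm1 fell 5.41-fold in control (log2 -2.44, SE 0.43, edgeR adjusted p = 0.00275), and the log2 fold change was -3.06 without control 1.

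Neurod1 (chr2:79452521-79456751, minus strand), the helix-loop-helix factor, was at 234.1, 244.3 and 270.1 CPM in C57 and at 241.9, 104.8 and 156.3 CPM in control. Yap CKO held 239.9, 139.3 and 96.3 CPM. Control 1 and Yap CKO 1 lay inside the C57 range and the other P60 libraries below it. The log2 fold change in control was -0.61 (SE 0.27, edgeR adjusted p = 0.0963), and without control 1 it passed at -0.96 (adjusted p = 0.00914). Neurod1 shares 201 exonic bases with Cerkl on the same strand, so its counts carry that uncertainty.

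Rxrg (chr1:167598384-167639623, plus strand), the cone receptor, was at 10.98, 11.3 and 8.12 CPM in C57. Control held 7.64, 7.64 and 8.13 CPM, and Yap CKO held 10.2, 10.98 and 7.34 CPM. The unnumbered C57 library lay at the level of control 3, and Yap CKO 1 and 2 lay at the level of the other C57 libraries. The log2 fold change in control was -0.40 (SE 0.16, edgeR adjusted p = 0.0751), and it passed without the unnumbered C57 library (-0.54, adjusted p = 0.0132).

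Expressed per kilobase of merged exon (RPKM), to compare genes roughly, the order of the factors changed between C57 and P60. The merged exons of Nrl hold 5689 bases in 2 blocks, nearly its whole span, so its RPKM depends on this annotated length. By CPM, Nrl was above Crx in C57 (2571 against 1602) and above Neurod1 in the control mean (213.8 against 167.6). The rank of Nrl beside Crx in C57 and beside Neurod1 at P60 thus rests on that length. In C57, Crx (506.8 ± 27.3) and Nrl (451.9 ± 11.7) led, followed by Nr2e3 (224.1 ± 40.6), Esrrb (94.0 ± 21.7), Neurod1 (91.4 ± 6.82), Otx2 (65.8 ± 3.61), Rorb (24.4 ± 0.93), Rxrg (4.40 ± 0.75) and Prdm1 (2.35 ± 0.48). Each neighbouring pair had this order in all 3 C57 libraries except Esrrb and Neurod1, in this order in 2 of 3. In control, Crx (81.8 ± 34.7) came first, Neurod1 (61.4 ± 25.4) next and then Nrl (37.6 ± 26.0). Otx2 (23.9 ± 2.65), Nr2e3 (13.5 ± 7.64), Esrrb (13.3 ± 8.57) and Rorb (11.4 ± 0.73) followed, then Rxrg (3.40 ± 0.12) and Prdm1 (0.45 ± 0.29; SD, n = 3 for each). Within each library, which compares the factors in the same retina, Crx was above Neurod1 and Neurod1 above Nrl by RPKM in all 3 controls and all 3 Yap CKO retinas. Nrl was above Otx2 in 2 of 3 in each group, and the order of Nr2e3, Esrrb and Rorb differed between retinas. By mean, Yap CKO had the same order as control except that Esrrb (14.7 ± 12.7) stood above Nr2e3 (13.2 ± 8.04).

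The balance between the factors, as the ratio of their counts within a library, needs no scaling between libraries. Crx over Otx2 was 5.72, 5.75 and 5.83 in C57, between 1.73 and 3.31 in control and between 1.505 and 3.21 in Yap CKO. Nrl over Crx was 1.72, 1.47 and 1.64 in C57, between 0.499 and 0.991 in control and between 0.242 and 1.13 in Yap CKO. Both ratios were lower in every P60 library than in every C57 library.
Neurod1 over Crx was higher at P60. It was between 0.144 and 0.171 in C57, between 0.644 and 0.662 in control and between 0.538 and 0.744 in Yap CKO. In control the 3 retinas held nearly the same ratio although their Crx levels spanned 158.2 to 375.6 CPM. Nr2e3 over Nrl did not separate the groups, with 0.254 to 0.344 in C57, 0.188 to 0.329 in control and 0.153 to 0.531 in Yap CKO. Rorb over Otx2 was 0.934 to 1.02 in C57 and 1.12 to 1.37 in control, while Yap CKO 1 fell inside the C57 range at 1.005 and Yap CKO 3 reached 1.64.

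**Figure D2:**
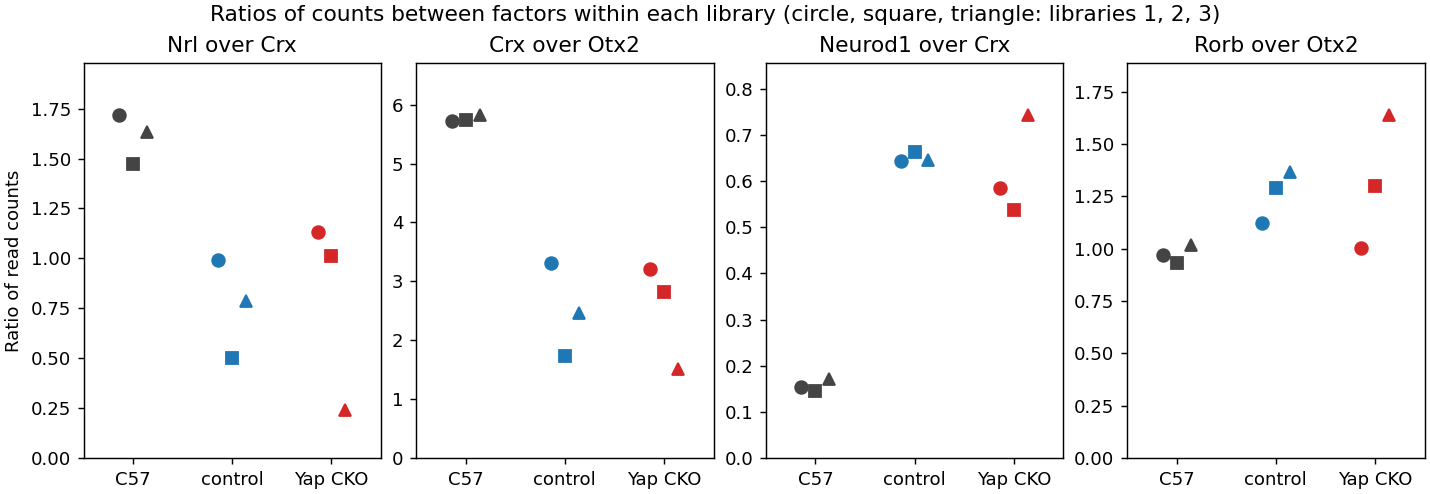
Ratio of read counts of 2 factors within each library, on linear axes from 0, by group (circle, square and triangle are libraries 1, 2 and 3, the C57 triangle is the unnumbered C57 library). Nrl over Crx and Crx over Otx2 are lower in every P60 library than in C57, Neurod1 over Crx is higher, and Rorb over Otx2 overlaps between Yap CKO and C57.

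Yap CKO retinas set beside the same C57 libraries gave 6 of 9 factors lower (edgeR adjusted p under 0.05), where 20.2% of 15840 genes tested were called lower and 20.3% higher. The 2 comparisons share the C57 libraries, so they are not independent. The 6 were Nr2e3 (log2 -4.13, adjusted p = 0.00141), Nrl (-3.39, 0.0319), Crx (-2.63, 0.0013), Prdm1 (-2.09, 0.0181), Otx2 (-1.49, 0.000391) and Rorb (-1.11, 0.00032). The median of the 9 was -2.09, against 0.02 for all genes tested. Esrrb had a log2 fold change of -2.72 and missed the threshold (SE 0.94, adjusted p = 0.0663), although its Yap CKO libraries all lay below C57, as did those of 24.8% of genes tested. Without Yap CKO 3, which held 9.58 CPM of Esrrb, it passed at -2.18 (adjusted p = 0.00222), and without Yap CKO 1 it was at -3.49 and did not pass (adjusted p = 0.0573).
Neurod1 (-0.70, adjusted p = 0.0890) and Rxrg (-0.13, adjusted p = 0.666) did not pass. Neurod1 passed without Yap CKO 1 (-1.12, adjusted p = 0.00552), and the log2 fold change of Nrl was -4.16 without that library. Nrl lost its call without C57 1 (adjusted p = 0.117), C57 2 (0.0623), the unnumbered C57 library (0.139) or Yap CKO 2 (0.116) and without a count filter (0.109), and Prdm1 without C57 1 (0.0704), the unnumbered C57 library (0.1003) or Yap CKO 2 (0.0622) and without a count filter (0.103), in both cases with every Yap CKO library below every C57 library.

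The question put to Yap CKO against control is whether these factors differ when Yap is deleted in Müller cells, in retinas of the same age that shared the 4-hydroxytamoxifen injection. None of the 9 passed the edgeR test, and none had an unadjusted p under 0.05, where 0.200% of 16539 genes tested were called and 17.8% had such an unadjusted p. DESeq2 and limma-voom called none of the 9 either, and every factor overlapped between the groups, while 25.1% of genes tested did not. What the data allow differs by gene. The 95% intervals were narrow for Rorb (log2 0.03, from -0.16 to 0.23, adjusted p = 0.883) and for Otx2 (log2 0.01, from -0.36 to 0.38, adjusted p = 0.985). That of Rorb ran from 0.896 to 1.17 times the control level, in whole retina and not in photoreceptors alone. The intervals were wide for Nrl (log2 0.25, from -2.75 to 3.24, adjusted p = 0.946) and Esrrb (0.15, from -2.87 to 3.17, adjusted p = 0.969). Nrl up to 9.48-fold and Esrrb up to 9.004-fold higher in Yap CKO lie within them.
Between these lay Crx (0.05, from -1.35 to 1.45), Nr2e3 (-0.03, from -1.86 to 1.80), Prdm1 (0.35, from -1.54 to 2.24) and Neurod1 (-0.08, from -1.28 to 1.13; adjusted p from 0.866 to 0.992 for the 4). Rxrg stood at 9.52 ± 1.93 against 7.80 ± 0.28 CPM (SD, n = 3; log2 0.29, from -0.08 to 0.66; adjusted p = 0.395). Without Yap CKO 3, the lowest of its group, Rxrg passed at 0.44 (adjusted p = 0.0384), in a fit that called 3.90% of genes tested higher and set 2 female against 3 male retinas.

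**Figure D3:**
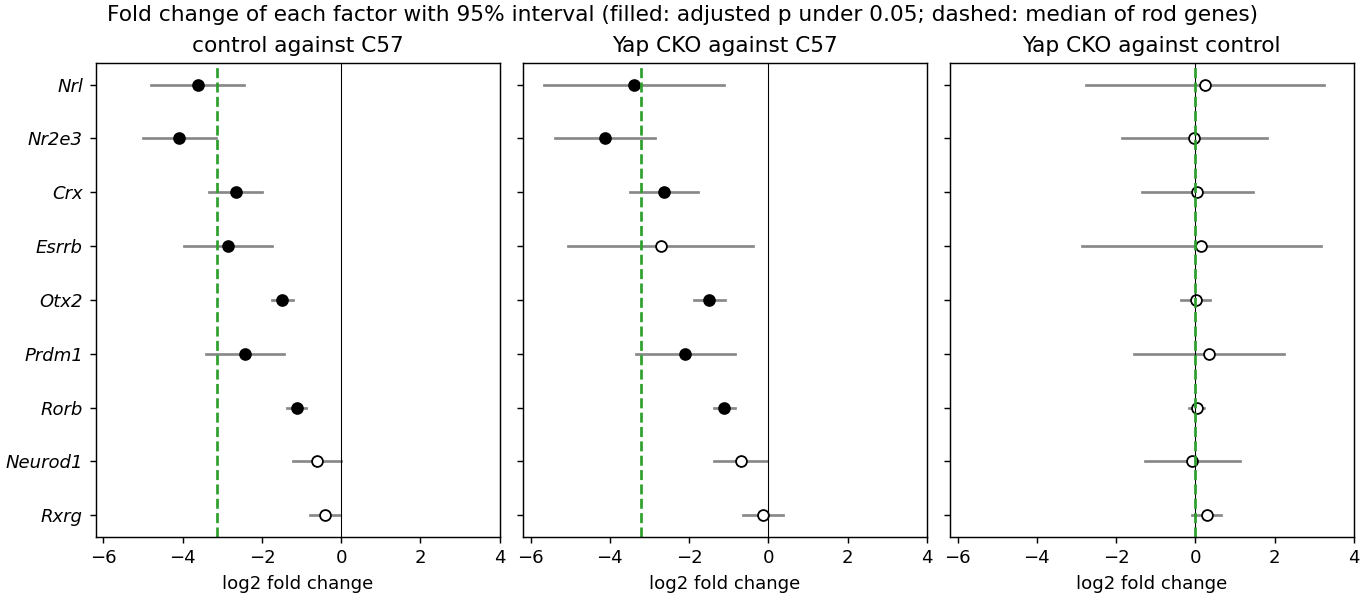
Log2 fold change of each factor with its 95% interval in the 3 comparisons (filled points have an edgeR adjusted p under 0.05, and the dashed line is the median of 18 rod genes). The filled points number 7 in control against C57, 6 in Yap CKO against C57 and 0 in Yap CKO against control, where the intervals of Otx2 and Rorb are the narrowest.

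Several factors varied among the P60 retinas together with the rod genes. The mean log2(CPM + 1) of 18 rod genes was 11.6 to 11.8 in C57, 9.37, 7.16 and 8.41 in control 1, 2 and 3, and 9.46, 8.59 and 5.51 in Yap CKO 1, 2 and 3. Nrl, Crx, Esrrb and Prdm1 ordered the 6 P60 libraries exactly as the rod genes did, from Yap CKO 1 through control 1, Yap CKO 2, control 3 and control 2 down to Yap CKO 3. Nr2e3 and Neurod1 had Yap CKO 3 lowest as well, and control 1 highest, and Otx2 differed from the rod order only in having control 3 above Yap CKO 2. Rorb and Rxrg did not follow that order.
Nrl in the lowest library was 1.22% of its C57 mean, whereas Rorb in its own lowest library, control 2, was 43.7% of its C57 mean. The 6 libraries share the scaling that both measures use, and this relation is given as a description.

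**Figure D4:**
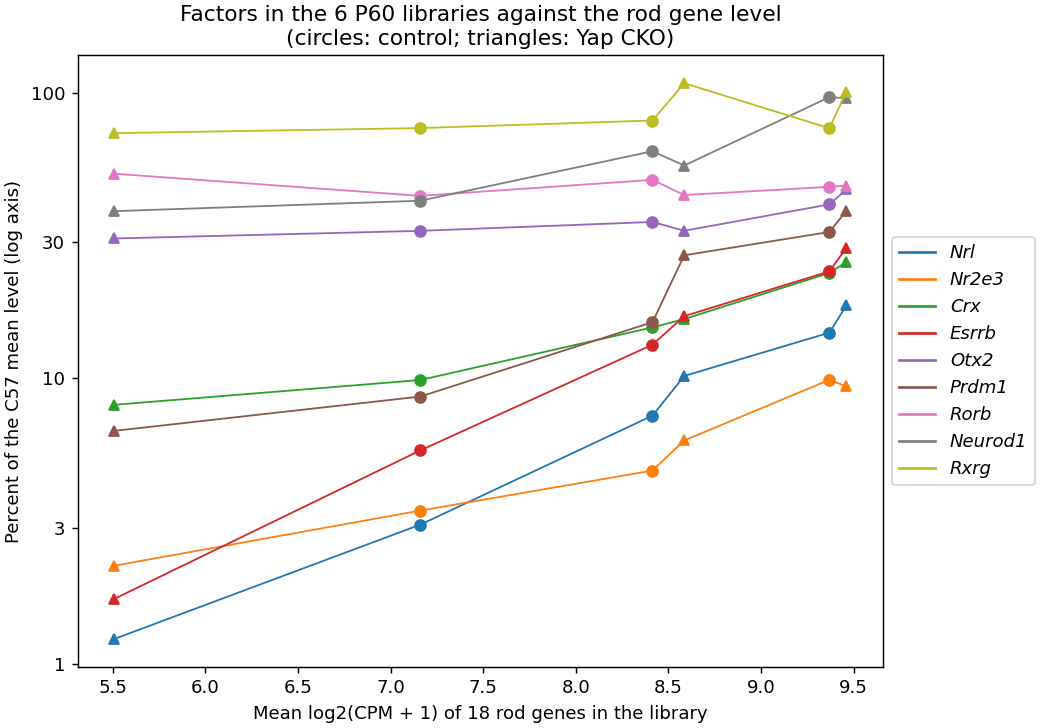
Level of each factor in the 6 P60 libraries, as a percentage of its C57 mean on a log axis, against the mean log2(CPM + 1) of 18 rod genes in the same library (circles are control, triangles Yap CKO, lines join the libraries of a gene in order of the rod level). Nrl, Esrrb, Prdm1, Crx and Nr2e3 climb with the rod level, Neurod1 climbs less, and Otx2, Rorb and Rxrg stay nearly level.

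To see how each factor stood beside the rod genes, its log2(CPM + 1) was taken relative to the mean of the 18 rod genes in the same library. This is not a level per rod, because fewer rods and less RNA per rod cannot be told apart. Nrl was at -0.41, -0.42 and -0.26 in C57, at -0.83, -0.84 and -0.83 in control and at -0.60, -0.55 and -0.49 in Yap CKO. The 3 groups did not overlap, and in control Nrl kept the same distance from the rod genes (-0.83 ± 0.007, SD, n = 3) while their mean ranged from 7.16 to 9.37. The difference of control from C57 was -0.47, where 0.0822% of genes tested stood lower without overlap on this scale (0.0758% in Yap CKO against C57). The difference of Yap CKO (-0.55 ± 0.05) from control was 0.29. Each of these differences had an exact permutation p of 0.1 (two-sided, 3 against 3), the smallest the design allows, and 0.142 after Benjamini-Hochberg adjustment over 27 tests. In Yap CKO against control, 0.0605% of genes tested stood higher without overlap on this scale. These small shares do not set Nrl apart from the rod genes. In control against C57, 99.2% of genes tested stood higher without overlap, and the edgeR log2 fold change of Nrl (-3.62) lay within those of the 18 rod genes (-3.71 to -2.29). A P60 gene that does not follow the rod genes would overlap, since their mean ranged from 5.51 to 9.46.
With the rod gene level as a covariate in the edgeR fit, Nrl was higher in Yap CKO than in control (log2 0.28, adjusted p = 0.0188), in a fit that called 4.51% of genes tested higher, and none of the other 8 factors passed. The Cre allele and, in part, sex differ between these groups too, since Yap CKO 1 and 2 were the female retinas at P60, and cannot be told apart from the Yap deletion in this difference. The difference of Yap CKO from control was 0.26 without Yap CKO 3 and 0.31 without Yap CKO 1.

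Esrrb also kept a nearly constant distance from the rod genes at P60. That distance was -2.32, -2.55 and -2.83 in C57, -2.28, -2.13 and -2.17 in control and -2.10, -2.02 and -2.11 in Yap CKO. Both P60 groups lay above C57, by 0.37 and 0.49, and Yap CKO lay 0.12 above control (exact permutation p = 0.1 for each). Nr2e3 was at -1.95, -2.40 and -2.09 in C57 and at -3.13, -2.41 and -3.21 in control, so its mean stood lower against the rod genes than in C57 (a difference of -0.77, exact permutation p = 0.1). Control 2 was nearly level with C57 2 (-2.41 and -2.40), so the groups only just did not overlap. In Yap CKO it was at -3.30, -3.04 and -1.37 and overlapped C57 (exact permutation p = 0.5), with Yap CKO 3 above all C57 libraries.
The other 6 factors and Esrrb stood higher relative to the rod genes in both P60 groups without overlapping C57, as did 99.2% of genes tested in control and 99.1% in Yap CKO, so this direction is that of nearly all genes. Each had the same smallest exact p of 0.1. Against C57, the control differences were 0.66 for Crx, 1.28 for Prdm1, 1.92 for Otx2, 2.29 for Rorb, 2.73 for Neurod1 and 3.05 for Rxrg. In Yap CKO against control, these 6 and Nr2e3 overlapped (exact permutation p from 0.6 to 1.0).

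Other regulators of photoreceptors split in a like way. Of 14 such genes, 9 fell and 2 rose in control against C57 (edgeR, median log2 -0.88, against 0.03 for all genes tested), 8 fell and 1 rose in Yap CKO against C57, and 0 passed in Yap CKO against control (1 at an unadjusted p under 0.05, 0 among the 9 factors above). Insm1, a zinc-finger factor of newborn neurons, fell from 17.6 ± 2.97 to 3.35 ± 0.69 CPM (SD, n = 3; log2 -2.43, adjusted p = 0.000102). Thrb, the thyroid hormone receptor that specifies M cones, fell from 89.2 ± 13.5 to 29.2 ± 8.17 CPM (log2 -1.64). Pias3, a SUMO ligase that acts with Crx, Nrl and Nr2e3, had a log2 fold change of -1.38, and Rora, a relative of Rorb, of -0.96.
Samd7, a silencer of non-rod genes in rods, had a log2 fold change of -3.10 (187.0 ± 46.4 to 22.4 ± 15.9 CPM), between those of Nrl and Esrrb. The 2 genes that rose were Tbx2, a T-box factor of S cones that inner neurons also express (42.8 ± 14.1 to 87.5 ± 10.3 CPM, log2 1.00, adjusted p = 0.00858), and Onecut1, a factor of horizontal cells (log2 0.75, adjusted p = 0.00957). Casz1, Fiz1 and Lhx4 did not pass (log2 -0.81, 0.17 and 0.13).

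Genes of the cells that hold the factors give the levels beside which they stand. All 18 rod genes fell in control against C57 (median -3.14), among them Gnb1 (-3.09) and Cngb1 (-3.08), which encode a transducin subunit and a channel subunit, and 11 of 12 cone genes fell (median -2.48), among them Gnat2, the cone transducin (-3.28), and Kcne2 (-2.66). In Yap CKO against C57, 10 rod and 7 cone genes fell, and in Yap CKO against control none of the 18 rod and 12 cone genes passed (median log2 0.0035 and 0.039). The fall of Nrl and Nr2e3 was thus at or beyond the rod median, and those of Otx2 and Rorb were well short of it. Rxrg, at -0.40 and not past the threshold, was well short of the cone median, and which cells held its RNA was not tested. Bipolar genes, from cells that also keep Otx2, had a median of -0.0011, with 5 lower and 1 higher of 14 in control: Prkca, the kinase of rod bipolar cells, fell (597.9 ± 54.8 to 291.7 ± 19.3 CPM, log2 -1.07) and Trpm1, the channel of ON bipolar cells, rose (0.58).
Of 10 pigment epithelium genes, whose cells also keep Otx2, 8 fell and 1 rose (median -1.12; Rpe65, the retinoid isomerase, 34.3 ± 0.73 to 6.17 ± 1.78 CPM). Their part in the level of Otx2 was not tested. Of 12 amacrine and horizontal cell genes 4 rose and 2 fell, of 8 ganglion cell genes 4 rose, and of 10 Müller glia genes 3 rose and 5 fell. Lens genes, summed, were at 2.77 to 16.9 CPM in C57, 5.15 to 10.2 CPM in control and 2.78 to 1218 CPM in Yap CKO, the top value being Yap CKO 3. That library was also the lowest at P60 for every factor except Rorb, and a link between the lens genes and these levels was not tested.

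Some genes had nearly the pattern of a factor over the 6 P60 libraries, by the root mean square difference of centred log2(CPM + 1) among 11324 genes. For Nrl these were Mak, a kinase of the photoreceptor cilium (0.068), Abca4, the retinoid transporter of outer segments (0.071), and Ankrd33 (0.097), where the spread of Nrl itself was 1.34. For Esrrb they were Nxnl1, which encodes the rod-derived cone viability factor (0.082), Mak (0.101) and Grk1 (0.102). Nr2e3 was nearest to the retinal non-coding RNA Rncr4 (0.072), Rgs9bp and Ano2, and Neurod1 to Gnb1 (0.053), Elovl4 and Ccdc126. Crx was nearest to Adipor1 (0.052), Klhl18 and Rrp1b.
Factors with a small spread lie close to many genes by this measure. Rorb was nearest to Agap2 (0.015, for a spread of 0.090), Asphd1 and Zfp503, Otx2 to Ccdc191, Smim13 and Agpat5, and Rxrg to Metap1d, Polr2c and Cox20. Prdm1 was nearest to Fam53b (0.096), Tma7 and Wdr31. Agap2 shows that likeness at P60 need not extend to C57: it was at 45.0 to 92.7 CPM there and at 114.8 to 137.4 CPM at P60, the reverse of Rorb.

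None of the 9 factors is among the 305 genes of the authors' deposited table of Yap CKO comparisons. The name of that table gives cut-offs on p, fold change and level for Yap CKO against control. Factors without a difference there would be left out of it, so their absence adds no separate result. In the authors' deposited table, each gene also carries a fold enrichment for NRL and for CRX, whose derivation is not stated in these sources and which is used only to describe. In the authors' deposited table, 23 genes had an NRL value above 0 and 23 a CRX value above 0, of which 14 had both. Of the 32 genes with either value, 22 had a negative log2 fold change in Yap CKO against control in the authors' deposited table (median -0.65), beside 209 of the 273 genes with neither (median -0.77). By the name of the table, its genes were chosen on this same change, so these counts describe only the chosen genes.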

How the data were processed

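Per the labels, frozen whole retinas gave 1 µg of total RNA for each directional TruSeq library. Per the submitters' processing notes, the tools were HISAT2 2.1.0, featureCounts and edgeR on GRCm38. Whether counting used strand, its annotation release and the featureCounts version are not given in the sources. The authors deposited whole-number read counts for 47729 Ensembl identifiers, of which 47224 had a symbol. The authors' deposited comparison table of 305 genes holds log2 fold changes and, per the file headers, fold enrichment ratios for NRL and CRX; its 9 columns of values per library were not used. One C57 column carries a number that no sample description shares. It was kept in the C57 group by its name, as the unnumbered C57 library.

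Each comparison was fitted on its own 6 libraries with edgeR 4.0.16 (R 4.3.3): filterByExpr (minimum count 10, minimum total 15), TMM, robust quasi-likelihood F-tests, and Benjamini-Hochberg adjustment over all genes tested with a threshold of 0.05. Every adjusted p is from edgeR unless another tool is named. The older quasi-likelihood statistics, the default of this version, were used. The scripts were tested on simulated data. CPM are TMM-scaled over all 9 libraries, and RPKM divide them by the merged exon length in GENCODE M21 (GRCm38). Overlap between groups was read from these CPM. Promoter windows came from RefSeq (GRCm38.p6), which held all 9 genes.

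Members and gene lists were chosen with earlier results of these data known. Genes named from the 10 other lists (118 genes) were the 4 tested genes with the smallest p in control against C57, or genes that define a cell type, in part; Samd7, Tbx2, Onecut1, Casz1, Fiz1, Lhx4 and Trpm1 were added after their values were seen. Pattern neighbours were the 3 nearest genes with a mean of at least 5 CPM over the P60 libraries, predicted genes and pseudogenes left out. Alternatives were RLE scaling, no count filter, DESeq2 1.42.0, limma-voom (limma 3.58.1), bias-adjusted deviances, one fit over all 9 libraries, the replicate number as a block, the rod gene level as a covariate, a pseudocount of 0.25 and leaving out each library. Total counts as the scale, and thinning of the P60 libraries to the smallest total, were chosen after seeing the data.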

Additional observations from a re-analysis of the deposited data

How the results depend on the processing

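In control against C57, all 135 log2 fold changes of the 9 factors under the alternatives stayed negative, and the count of factors called was 7 or 8. In Yap CKO against C57 that count was between 4 and 8, 4 without a count filter (Nrl adjusted p = 0.109, Prdm1 0.103) and 8 by DESeq2, which added Esrrb (0.0162) and Neurod1 (0.045). Rxrg there turned to 0.23 with total counts as the scale and ranged from -0.27 to 0.039 when single libraries were left out. Total counts as the scale moved the median of all genes to 0.38 in both comparisons with C57, and the absence of a filter moved it to 0.19 and 0.23. On total counts, 6864 genes were higher and 1937 lower in control against C57, beside 3655 and 3547 with TMM, and 6367 and 1594 in Yap CKO against C57, beside 3217 and 3202; 7 and 6 of the factors were lower on that scale too. Leaving out single libraries gave 3905 to 8013 genes in Yap CKO against C57, beside 6419.

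In Yap CKO against control the 33 genes became 15 with RLE scaling, 343 without a filter, 919 by DESeq2, 16 by limma-voom, 15 with bias-adjusted deviances, 60 in one fit over all libraries and 1626 with the rod gene level as covariate, and ranged from 0 to 1473 when single libraries were left out: 0 without control 1 or control 2 (2035 and 2226 at an unadjusted p under 0.05), 53 without control 3, 3 without Yap CKO 1, 1 without Yap CKO 2 and 1473 without Yap CKO 3. The count of factors called was 0, except 1 with the rod covariate (Nrl) and 0 to 1 when libraries were left out (Rxrg). The signs of these uncalled differences were not fixed: by limma-voom Nrl was at -0.18, Crx at -0.021, Esrrb at -0.37 and Otx2 at -0.0053, and with the rod covariate Nr2e3 was at 0.12 and Neurod1 at 0.070. Leaving out single libraries gave -0.53 to 0.90 for Nrl, -0.53 to 0.51 for Nr2e3, -0.40 to 0.40 for Crx, -0.62 to 0.73 for Esrrb, -0.18 to 0.12 for Otx2, -0.17 to 0.97 for Prdm1, -0.032 to 0.083 for Rorb and -0.50 to 0.27 for Neurod1. The cause was not tested.

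With the replicate number as a block, Yap CKO against control called 45 genes and 0 factors, with Nrl at -0.085, Crx at -0.016, Esrrb at -0.22 and Otx2 at -0.0051. The numbers did not pair the libraries, since the deviations of same-numbered control and Yap CKO libraries correlated at 0.40, -0.03 and 0.04 and only those of number 1 correlated best with each other. In the comparisons with C57 the block could use 4 libraries, and it called 8 factors (adding Neurod1, adjusted p = 0.0411) in control and 7 (adding Esrrb) in Yap CKO.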
